A study of Homo sapiens with 6 samples.

Results

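The angiomotin family consists of 3 genes, AMOT, AMOTL1 and AMOTL2, and chromatin accessibility around them was followed by ATAC-seq in HLF cells. In this assay the Tn5 transposase inserts adapters into DNA that is not covered by nucleosomes, and stretches with many inserted fragments are called as peaks. The members of the set were taken as all peak regions within 1 kb of any transcription start of the 3 genes, inside their gene bodies or within 50 kb on either side, in hg38 with the GENCODE annotation. Overlapping regions of different libraries (1 bp or more) were joined into a site, which gave 54 sites at the 3 genes among 166021 sites in all. Of these, 1 belonged to AMOT, 27 to AMOTL1 and 26 to AMOTL2.

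HLF is an established human liver cancer cell line, and the labels give no genetic change for either group. The 3 libraries of the control group came from cells given DMSO, the vehicle. The 3 libraries of the treated group came from cells given 5 μM SNDX-5613 (revumenib), which blocks the contact between menin and the histone methyltransferase MLL1. The labels give 24 h for both groups and 1 batch for all 6 libraries, whereas the study's methods describe a longer exposure, so that the duration is not certain. Among hepatocyte markers, ALB, APOA1, FGB and HNF4A had no promoter peak in any library, APOB and TTR each had one in 3 DMSO and 2 SNDX-5613 libraries, and SERPINA1 in 1 library of each group, while 4 of 4 mesenchymal and 4 of 4 epithelial marker genes had one in all 6. Of 3 endothelial marker genes, 0 had a promoter peak in all 6 libraries.

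Angiomotins are scaffold proteins of cell junctions and of the actin cortex. They bind the transcriptional coactivators YAP and TAZ and hold them outside the nucleus, and they can activate the LATS kinases, so that they belong to the Hippo pathway, which restrains growth in liver. AMOT is made in a long form, whose N-terminal part binds YAP and actin, and in a short form that lacks this part and was first described through its binding of the angiogenesis inhibitor angiostatin. AMOTL1 is a junction protein with similar YAP-binding motifs, and AMOTL2 is itself a target gene of YAP with TEAD factors.

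The libraries differed in depth. The genome-wide background pileup was recovered from the peak lists as the background value found most often among the summits of a library. It served as relative depth, and the share of fragments in peaks was not measured. This background was 0.997 to 1.51 in 5 libraries and 0.211 in SNDX-5613 replicate 3, or 16.2% of the median of the other 5. That library had 40568 peak regions, against 88026 to 113675 in the others, and 16 of them lay at the angiomotin genes, against 37 to 43. Because it stands apart, results are given with and without it. Each site was ranked within its library by the −log10 p of its strongest summit among the 33405 sites that had a peak in all 6 libraries, and this rank is given as a percentile, from 0 for the weakest to 100 for the strongest site. With 3 against 3 libraries, the smallest two-sided exact permutation p is 0.1, so that no single comparison could reach 0.05. The study's methods describe a replicate as 1 dish of cells divided between the treatments, so p-values measure the spread between libraries of 1 line. In bulk libraries, fewer cells with an open site and less opening per cell cannot be told apart.

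The sequences beneath the summits are shown first. They include a promoter with 2 separate summits, a promoter whose strongest summit lies beside a TEAD motif match and an intronic site with AP-1 motif matches. Each sequence is written 5′ to 3′ on the strand of its gene, from hg38, in lower case with motif matches on either strand in capitals. The motifs searched were CCAAT (bound by NF-Y), GGAATG (bound by TEAD factors), TGANTCA (bound by AP-1) and GGGCGG (bound by SP and KLF factors). A match on the other strand stands in capitals as its reverse complement. The windows are the upstream summit of the AMOT promoter (chrX:112841483-112841683, minus strand), the bases just 5′ of the AMOT start (chrX:112840832-112841008, minus strand), the bases just 5′ of the AMOTL1 start (chr11:94768179-94768341, plus strand), the TEAD match nearest to the AMOTL2 promoter summit (chr3:134374499-134374528, minus strand), the intronic sites 17 and 19 of AMOTL1 (chr11:94794839-94795039 and chr11:94809382-94809582, plus strand) and the intronic site 8 of AMOTL2 (chr3:134364203-134364403, minus strand).
AMOT upstream summit: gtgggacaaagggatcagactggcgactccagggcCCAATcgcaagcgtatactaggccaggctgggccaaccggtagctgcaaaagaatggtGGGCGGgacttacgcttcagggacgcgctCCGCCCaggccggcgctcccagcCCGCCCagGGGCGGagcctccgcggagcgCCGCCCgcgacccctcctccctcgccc
AMOT start summit: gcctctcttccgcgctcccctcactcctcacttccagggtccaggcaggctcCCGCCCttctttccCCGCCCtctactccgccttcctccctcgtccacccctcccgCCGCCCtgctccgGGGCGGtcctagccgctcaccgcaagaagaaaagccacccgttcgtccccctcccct
AMOTL1 promoter: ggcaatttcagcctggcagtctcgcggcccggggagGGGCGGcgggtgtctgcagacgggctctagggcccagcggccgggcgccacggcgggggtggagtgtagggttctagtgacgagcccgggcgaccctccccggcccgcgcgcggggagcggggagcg
AMOTL2 TEAD match: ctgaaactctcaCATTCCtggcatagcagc
AMOTL1 site 17: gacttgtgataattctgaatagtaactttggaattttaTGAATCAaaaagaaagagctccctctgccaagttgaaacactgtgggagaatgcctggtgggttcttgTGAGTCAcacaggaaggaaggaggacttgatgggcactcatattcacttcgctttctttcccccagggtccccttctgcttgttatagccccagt
AMOTL1 site 19: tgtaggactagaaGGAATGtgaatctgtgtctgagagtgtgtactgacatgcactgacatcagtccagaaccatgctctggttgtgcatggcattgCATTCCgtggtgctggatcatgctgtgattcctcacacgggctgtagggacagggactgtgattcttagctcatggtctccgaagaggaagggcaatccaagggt
AMOTL2 site 8: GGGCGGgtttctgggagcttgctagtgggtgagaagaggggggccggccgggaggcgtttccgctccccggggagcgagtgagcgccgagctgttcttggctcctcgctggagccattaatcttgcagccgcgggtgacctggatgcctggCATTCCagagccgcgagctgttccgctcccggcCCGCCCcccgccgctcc

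The AMOT upstream window of 201 bases holds 1 CCAAT match, which begins at -65 from the summit, and 5 GGGCGG matches. Windows of this size around the summit hold CCAAT at 33.7% and GGGCGG at 68.8% of the 11005 promoter sites present in all 6 libraries. The 177 bases just before the AMOT start hold 4 GGGCGG matches and no match to the other motifs, and 38.7% of 35116 RefSeq promoters (GRCh38.p14) hold GGGCGG in this stretch. The 163 bases before the AMOTL1 start hold 1 GGGCGG match, which 37.8% of RefSeq promoters do in the same length. The AMOTL2 match to GGAATG begins at -13 from the promoter summit, and 6.86% of promoter sites hold GGAATG within 100 bp of the summit. Site 17 of AMOTL1 holds 2 TGANTCA matches, and 27.2% of the 18000 sites in all 6 libraries that lie away from promoters hold 1 or more. Site 19 of AMOTL1 holds 2 GGAATG matches and site 8 of AMOTL2 holds 1, and 20.96% of such sites away from promoters hold it. These are matches of letters and were not tested as binding sites.

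Over all 54 sites, GGAATG lay within 100 bp of the summit at 15 sites, or 27.8%, against 15.5% of all sites. It was found at 10 of 26 sites of AMOTL2, 5 of 27 sites of AMOTL1 and 0 of 1 site of AMOT. TGANTCA was found at 14 sites (25.9% against 15.5% of all sites), CCAAT at 13 (24.1% against 24.3%) and GGGCGG at 9 (16.7% against 14.5%). Among sites in all 6 libraries, TGANTCA was at 3 of 14 (21.4%), against 17.8% of all such sites and 27.2% of those away from promoters. GGAATG was at 4 of 14 (28.6%), against 15.2% and 21.0%. The sites of a gene lie in the same stretch of chromosome and are not independent, so these shares are a description.

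The 3 loci differed in how many accessible sites they held. AMOT (ENSG00000126016.17), on chromosome X from 112774503 to 112840831 on the minus strand, had 1 site, at its promoter, and no site in the gene body or within 50 kb on either side. AMOTL1 (ENSG00000166025.18), on chromosome 11 from 94706431 to 94876748 on the plus strand, had 2 promoter sites, 21 in the gene body and 4 downstream. AMOTL2 (ENSG00000114019.15), on chromosome 3 from 134355347 to 134375479 on the minus strand, is the shortest of the 3 genes at 20133 bp, and had 3 promoter sites, 2 in the gene body, 4 upstream and 17 downstream. Per 100 kb of locus this was 0.601 sites for AMOT, 9.99 for AMOTL1 and 21.6 for AMOTL2. Most of the AMOTL1 sites were intronic, and some of those downstream lay in the long noncoding RNA gene LINC02004 (AMOTL2) or ENSG00000256469 (AMOTL1), so that a site in a locus is not shown to act on the gene.

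**Figure D1:**
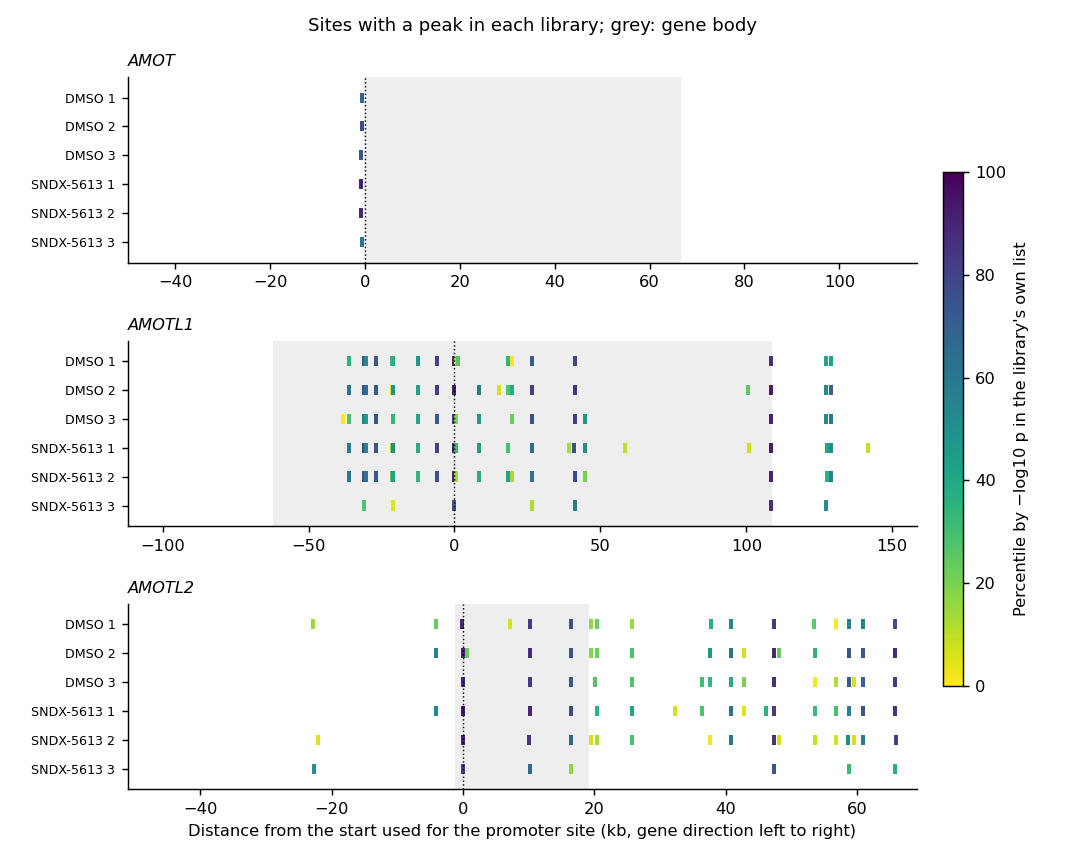
Peaks of each library along the 3 loci, by distance in kb from the start used for the promoter site, with the gene body in grey and the colour giving the percentile by −log10 p within the library's own list. AMOT has its promoter site alone in all 6 libraries, AMOTL1 and AMOTL2 have peaks spread through and beyond the gene, and SNDX-5613 replicate 3 has the fewest.

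Of the 54 sites, 14 had a peak in all 6 libraries (1 of AMOT, 7 of AMOTL1 and 6 of AMOTL2). A further 11 were present in the 5 deeper libraries and missing in SNDX-5613 replicate 3 alone, and 15 were seen in 1 library. No site was gained (called in all 3 treated libraries and in no control library), where 0.147% of all sites were, and none was lost (the opposite), where 1.18% were. Without SNDX-5613 replicate 3 there were again 0 gained and 0 lost among the 54, against 2.39% and 1.21% of all sites. The authors' consensus regions overlapped 36 of the 54 sites for DMSO and 35 for SNDX-5613, with 32 in both.

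With all 6 libraries, the number of peak regions per locus did not differ beyond the spread between libraries. AMOT had 2, 2 and 2 regions in DMSO and 2, 1 and 2 in SNDX-5613 replicates 1, 2 and 3, where the single region of replicate 2 covered both summits. AMOTL1 had 18, 19 and 18 regions in DMSO and 23, 21 and 7 in SNDX-5613 libraries. AMOTL2 had 18, 18 and 17 regions in DMSO and 18, 18 and 7 in SNDX-5613 libraries. The groups overlapped in each locus (exact two-sided permutation p = 1 for each), and the lowest count of both AMOTL1 and AMOTL2 was that of the shallow library. Without it, AMOTL1 had 3.67 more regions on average in SNDX-5613 than in DMSO libraries and AMOTL2 had 0.333 more. The AMOTL1 groups then no longer overlapped, at 23 and 21 against 18, 19 and 18 (exact two-sided permutation p = 0.1).

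Each of the 3 genes has several annotated starts, and only some of them had a peak region centred within 1 kb. Of the 5 annotated AMOT transcripts, AMOT-203, which encodes the long form of 1084 residues, and AMOT-201, which encodes the short form of 675 residues, start close together (112840831 and 112840815), and both starts had a peak region centred within 1 kb in all 6 libraries. Accessibility at this promoter therefore cannot tell the long and the short form apart. The internal starts of AMOT-202 and AMOT-204 (112822584 and 112822536), further into the gene, had no peak within 1 kb in any library. For AMOTL1, the starts of AMOTL1-202 and AMOTL1-203 (906 residues in AMOTL1-202) had a peak in all 6 libraries, and the distal start of AMOTL1-201, upstream at position 94706431, had none in any. For AMOTL2, the starts of 11 of 13 transcripts had such a peak in all 6 libraries, among them AMOTL2-201 (780 residues) and AMOTL2-212 (837 residues). The AMOTL2-212 start, at 134375479, lies outside the promoter site (chr3:134374065-134375053), and the nearest summit was 520 bp from it. A peak region centred within 1 kb thus does not show that each of these starts was itself open.

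The AMOT promoter was the site with the highest SNDX-5613 minus DMSO difference in rank among the 14. The site spans chrX:112840524-112841730 and covers the first exon and the sequence before it. Its percentile was 29.9, 32.9 and 32.9 in DMSO replicates 1, 2 and 3, while it was 70.4, 70.8 and 53.9 in SNDX-5613 replicates 1, 2 and 3. All treated libraries lay above all controls, with the shallow replicate 3 nearest to them. The mean was 31.9 ± 1.73 under DMSO and 65.0 ± 9.65 under SNDX-5613 (SD over 3 libraries), a difference of 33.1 percentile points (exact two-sided permutation p = 0.1, the smallest possible). Without SNDX-5613 replicate 3, ranked over the 59985 sites present in the 5 deeper libraries, the means were 55.7 and 83.6 and the difference was 27.9. Ranked over each library's own list, the difference was 8.13 points and the groups overlapped (exact two-sided permutation p = 0.4). Of the 33405 sites compared, 69 (0.207%) had a difference at least this large in the same direction, as did 26 of the 12722 protein-coding promoters.

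Among the 12722 protein-coding promoters with a peak in all 6 libraries, AMOT was one of the weaker in the DMSO libraries. Its −log10 p was above that of 6.55%, 7.97% and 7.64% of the protein-coding promoters with a peak in all 6 libraries in DMSO replicates 1, 2 and 3. In SNDX-5613 replicates 1, 2 and 3 it was above 31.4%, 31.8% and 18.2% of them. Such promoters are strong sites as a set, and among all regions of a library's own list AMOT stood higher. Its own-list percentile was 67.5, 76.9 and 73.1 in DMSO and 90.7, 89.9 and 61.4 in SNDX-5613 replicates 1, 2 and 3.

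**Figure D2:**
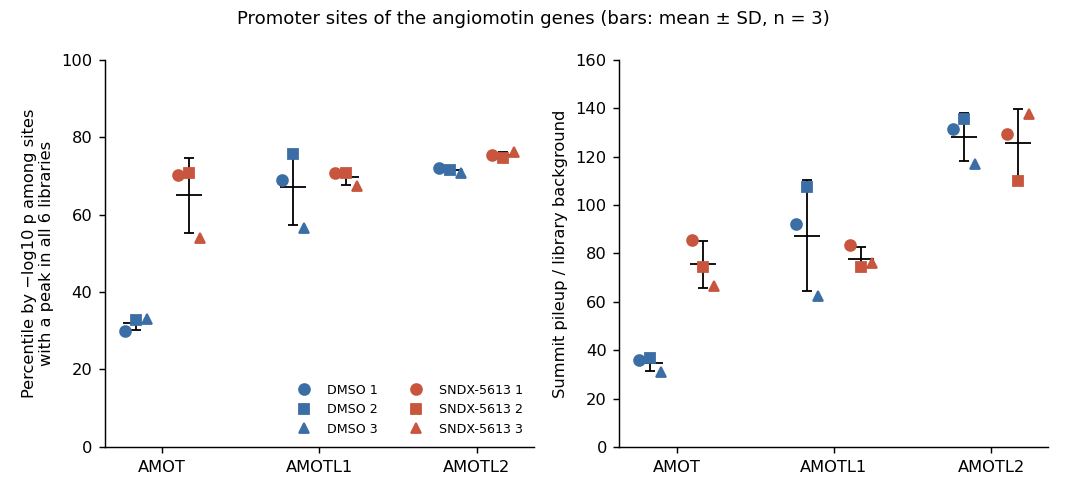
Promoter sites of the 3 genes in each library, as the percentile by −log10 p among sites present in all 6 libraries (left) and as summit pileup divided by library background (right), with the mean and SD of 3 libraries. The SNDX-5613 points of AMOT lie above its DMSO points on both scales, the AMOTL1 points overlap on both, and the AMOTL2 groups are apart on the left scale alone.

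AMOT accessibility was carried by 2 summits, one next to the start and one further upstream, which were separate in all 6 libraries. The upstream summit lay 736 to 757 bp before the AMOT-203 start and the start-proximal one 52 to 100 bp before it. The upstream summit held a pileup of 36, 48 and 45 fragments in DMSO and 108, 112 and 14 in SNDX-5613 replicates 1, 2 and 3. Divided by the background of each library, this was 36.1, 36.8 and 31.1 in DMSO and 85.7, 74.2 and 66.4 in SNDX-5613 libraries. The means were 34.7 ± 3.10 and 75.4 ± 9.74 (SD over 3 libraries), a ratio of 2.18 without overlap of the groups (exact two-sided permutation p = 0.1). The 14 fragments of the shallow library have a 95% exact Poisson interval of 7.65 to 23.5, which covers counting error only.

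The start-proximal summit showed the same order of the groups. Over background it stood at 26.1, 20.7 and 13.8 in DMSO and at 44.4, 42.4 and 56.9 in SNDX-5613 libraries, with means of 20.2 ± 6.14 and 47.9 ± 7.84 (SD, p = 0.1 by an exact two-sided permutation of 3 against 3 libraries). In SNDX-5613 replicate 3 it rested on 12 fragments (95% exact Poisson interval 6.20 to 21.0). Across all sites present in 6 libraries, the median SNDX-5613 minus DMSO difference in log2 pileup over background was -0.09. With each library set to its own median, the AMOT site was 1.21 higher in SNDX-5613 than in DMSO libraries on this log2 scale (exact two-sided permutation p = 0.1).

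The authors' fold enrichment did not separate the groups at the upstream summit. Fold, which divides the pileup by the local rather than the genome-wide background, was 11.29, 13.98 and 12.71 in DMSO and 16.71, 15.03 and 7.83 under SNDX-5613 (means 12.7 ± 1.35 and 13.2 ± 4.72, SD, p = 0.9 by an exact two-sided permutation of 3 against 3 libraries). The local background around the summit was itself 2.29, 1.92 and 1.81 times the library background in DMSO and 4.38, 4.32 and 4.34 times in SNDX-5613 libraries. Fold adds 1 to both the pileup and the background, which lowers it where both are small, as in SNDX-5613 replicate 3. When sites were ranked by fold within each library, which compares a site with others of the same depth, AMOT again had all 3 SNDX-5613 libraries above all DMSO libraries, with a difference of 19.1 percentile points.

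**Figure D3:**
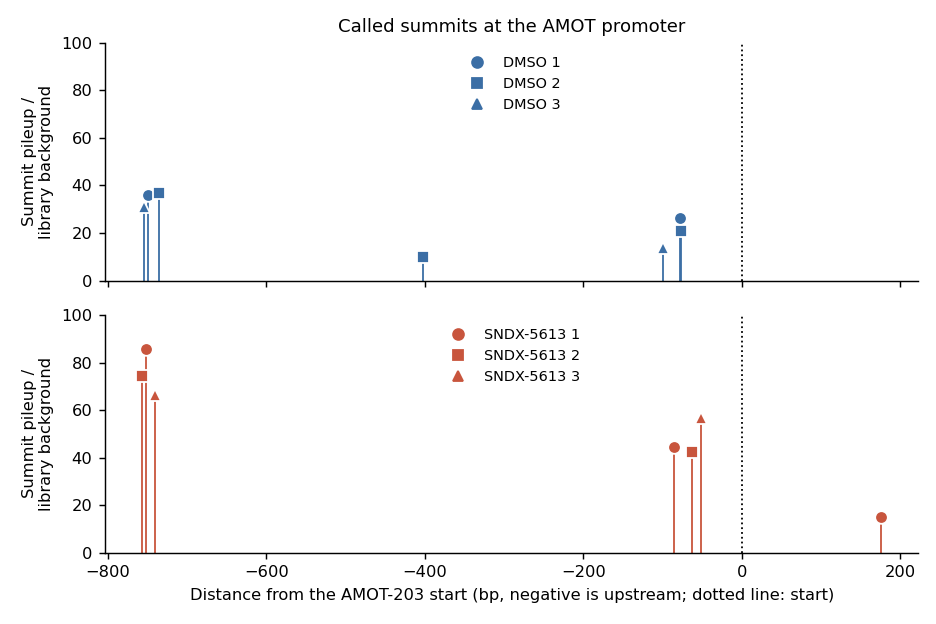
Each called summit at the AMOT promoter, by its distance in bp from the AMOT-203 start and its pileup divided by the background of its library, for DMSO (top) and SNDX-5613 (bottom) replicates 1 to 3. Both the upstream summits and those next to the start are taller in the SNDX-5613 libraries (66.4 to 85.7 upstream) than in the DMSO libraries (31.1 to 36.8 upstream), and 2 minor summits were called in 1 library each.

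The AMOTL1 promoter showed no difference beyond the spread between libraries. This site (chr11:94768041-94768644) had its strongest summit 63 bp before the start of AMOTL1-202. Its percentile was 68.9, 75.8 and 56.6 in DMSO and 70.9, 70.7 and 67.3 in SNDX-5613 libraries. The treated values lay within the range of the controls, and the difference of 2.52 points was smaller than the spread between DMSO libraries (means 67.1 ± 9.73 and 69.6 ± 2.00, SD, p = 0.8 by an exact two-sided permutation of 3 against 3 libraries). On the scale of pileup over background the means were 87.3 ± 22.96 and 77.8 ± 4.88, with the opposite sign (exact two-sided permutation p = 0.6). A second, weaker AMOTL1 promoter site, 633 bp after the start, was present in 2 DMSO and 2 SNDX-5613 libraries.

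By the mean over DMSO libraries, the AMOTL2 promoter was the strongest of the 3 by percentile and by pileup over background. By fold it was the weakest of the 3 in each DMSO library, at 10.5, 10.7 and 9.43 in replicates 1, 2 and 3. AMOT was at 11.29, 13.98 and 12.71 and AMOTL1 at 15.52, 19.51 and 12.71. The local background at AMOTL2 was 11.57, 11.98 and 11.77 times the library background in these libraries, against 2.29, 1.92 and 1.81 times at AMOT. The site (chr3:134374065-134375053) had its strongest summit 56 bp before the AMOTL2-201 start, beside the TEAD match. The summits of the 6 libraries were spread over 91 bp. Its percentile was 72.1, 71.6 and 70.8 in DMSO and 75.4, 74.6 and 76.1 in SNDX-5613 libraries. The groups did not overlap, but the difference was small, 3.84 points (means 71.5 ± 0.681 and 75.3 ± 0.725, SD, p = 0.1 by an exact two-sided permutation of 3 against 3 libraries), and 26.7% of the sites compared had a difference as large in this direction. The pileup over background was 128 ± 9.88 under DMSO and 126 ± 14.1 under SNDX-5613 (SD, p = 0.7 by an exact two-sided permutation of 3 against 3 libraries), and the groups also overlapped when sites were ranked by fold (12.4 points, exact two-sided permutation p = 0.3). With each library set to its own median, the log2 pileup over background was 0.0584 higher in SNDX-5613 than in DMSO libraries, without overlap (exact two-sided permutation p = 0.1). Without SNDX-5613 replicate 3 the groups were again apart in rank, by 1.99 points. The other AMOTL2 promoter sites, 655 and 7123 bp after that start, were each called in 1 DMSO library.

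Between the promoters of the 3 genes, the order of the means by percentile and by pileup over background was the same in both groups. AMOT was lowest and AMOTL2 highest, but AMOT stood nearer to AMOTL1 in the SNDX-5613 libraries. By fold the order was different, with AMOTL2 below AMOTL1 in every library. AMOTL2 was also below AMOT by fold, except in SNDX-5613 replicate 3 (8.54 against 7.83). By percentile, in DMSO replicates 1, 2 and 3, AMOT at 29.9 to 32.9 lay below AMOTL1 at 56.6 to 75.8 and AMOTL2 at 70.8 to 72.1. In SNDX-5613 replicates 1 and 2 the AMOT and AMOTL1 promoters stood within 1 point of each other in the same library (70.4 and 70.9, then 70.8 and 70.7), while in replicate 3 AMOT was at 53.9 and AMOTL1 at 67.3.

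Promoters of other genes resembled the 3 patterns. By the Euclidean distance between the percentiles of the 6 libraries, the protein-coding promoters nearest to AMOT were HES1 (16.7), KCTD15 (18.0) and SNAP25 (18.3), those nearest to AMOTL1 were SYNGR2 (7.33), SYNE2 (8.07) and PAM (8.65), and those nearest to AMOTL2 were DNAJB13 (3.68), CTIF (3.71) and RBCK1 (3.78).

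Beyond the promoters, an intronic site of AMOTL1 stood lowest in SNDX-5613 relative to DMSO. Site 17 (chr11:94794248-94795157) lies 26597 bp after the start of AMOTL1-202, in an intron, and carries the AP-1 matches shown above. Its percentile was 36.6, 42.3 and 36.6 in DMSO and 16.4, 16.3 and 4.55 in SNDX-5613 libraries, and all treated libraries lay below all controls. The means were 38.5 ± 3.31 and 12.4 ± 6.80 (SD over 3 libraries), a difference of -26.1 points (exact two-sided permutation p = 0.1). Of the 33405 sites, 75 (0.225%) had a difference at least as low. Site 17 was named because its groups did not overlap, which fixes this p, and it was the lowest of the 14 sites compared. Neither the p nor the share is that of a site chosen beforehand. The pileup over background gave the same order, with 52.2, 57.5 and 44.2 in DMSO and 30.2, 25.2 and 23.7 in SNDX-5613 libraries, a ratio of 0.514. In SNDX-5613 replicate 3 the summit held 5 fragments, and without that library the difference was -22.5 points. The strongest summit lay 26597 to 26625 bp after the start in the DMSO libraries and in SNDX-5613 replicate 2 at 26595 bp, but at 26500 and 26487 bp in SNDX-5613 replicates 1 and 3, over a different part of the same site.

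Among the 14 sites in all 6 libraries, 2 of 14 had all SNDX-5613 ranks above all DMSO ranks (AMOT and the AMOTL2 promoter), where 8.54% of all sites did, and 1 of 14 had them below (AMOTL1 site 17), where 8.08% did. The remaining 11 overlapped. The median difference of the 14 was 1.13 points, against -0.0933 over all sites. A share of this size is near the background, so the counts themselves say nothing particular about the family.

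**Figure D4:**
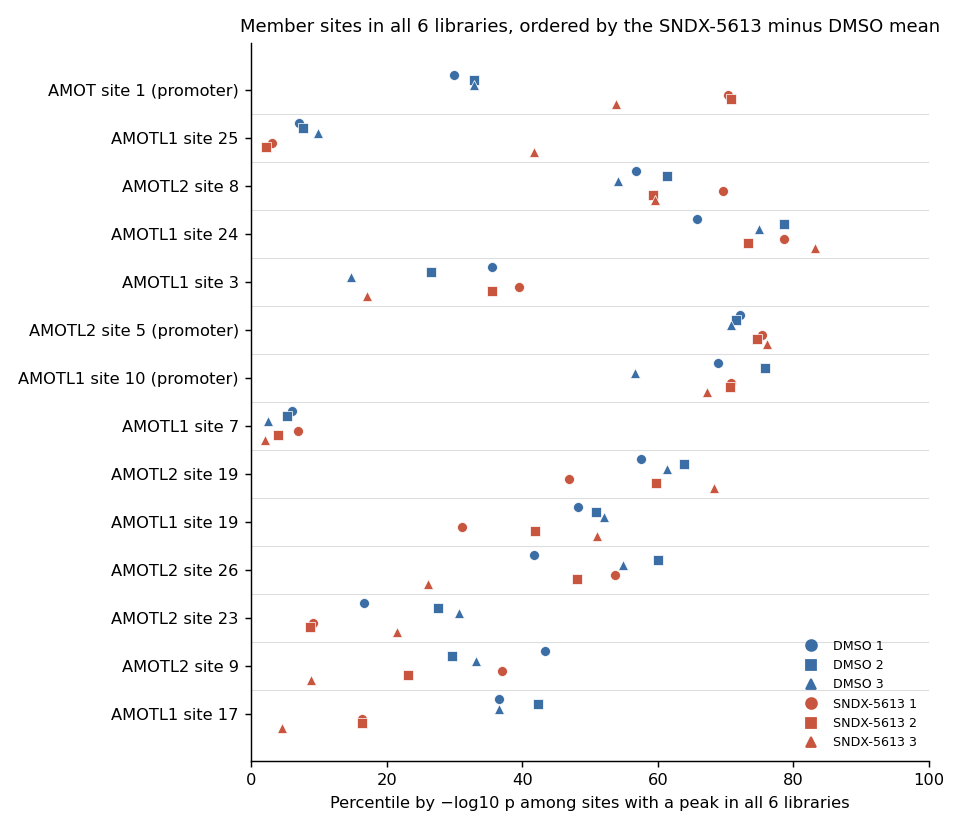
Percentile by −log10 p of the 14 angiomotin sites with a peak in all 6 libraries, each library a point, ordered by the difference of the group means. The AMOT promoter at the top has its SNDX-5613 points at 53.9 to 70.8 and its DMSO points at 29.9 to 32.9, site 17 of AMOTL1 at the bottom has the opposite order, and most of the others overlap.

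The strongest sites away from the promoters overlapped between the groups. For AMOTL1 these were site 24, site 19 and site 9. Site 24 (chr11:94876360-94877272), with its summit 103 bp past the 3′ end of the gene and within ENSG00000256469, had a higher mean percentile within the libraries' own lists (90.3) than the AMOTL1 promoter (86.5). Its common percentile was 65.7, 78.7 and 75.0 in DMSO and 78.6, 73.2 and 83.2 in SNDX-5613 libraries, a difference of 5.23 points (exact two-sided permutation p = 0.5). Site 19, the intronic site with the GGAATG matches, was at 48.3, 50.8 and 52.0 in DMSO and 31.0, 41.9 and 51.0 in SNDX-5613 libraries, a difference of -9.08 (exact two-sided permutation p = 0.3). Site 19 overlapped through replicate 3 alone, and on the scale of pileup over background all SNDX-5613 libraries lay below all DMSO libraries (means 43.6 ± 7.37 and 56.9 ± 3.37, SD, p = 0.1 by an exact two-sided permutation of 3 against 3 libraries).

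Site 9, an intronic site 5919 bp before the start of AMOTL1-202, was among the stronger sites of the 5 deeper libraries and had no peak in SNDX-5613 replicate 3. Its fold was 19.9, 19.5 and 14.4 in DMSO and 17.9 and 14.9 in SNDX-5613 replicates 1 and 2. Of the 5834 sites within 5 percentile points of it in the 5 deeper libraries, 72.7% had a peak in SNDX-5613 replicate 3. Its mean rank in those libraries was 64.9 ± 8.36 in DMSO (SD, n = 3) and 63.0 in SNDX-5613 replicates 1 and 2.

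For AMOTL2 the strongest other sites were site 19, site 8 and site 26. Site 8, in an intron 10144 bp after the start, was at 56.8, 61.3 and 54.1 in DMSO and 69.6, 59.3 and 59.5 in SNDX-5613 libraries, a difference of 5.41 (exact two-sided permutation p = 0.3). Site 19, in LINC02004 47400 bp after the start, was at 57.5, 63.9 and 61.4 in DMSO and 46.8, 59.7 and 68.3 in SNDX-5613 libraries, a difference of -2.66 (exact two-sided permutation p = 0.8). Site 26, 65844 bp after the start, was at 41.7, 59.95 and 54.8 in DMSO and 53.6, 48.0 and 26.1 in SNDX-5613 libraries, a difference of -9.59 (exact two-sided permutation p = 0.4). At each of these sites the values of the groups overlapped.

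The 5 deeper libraries allowed 25 angiomotin sites to be compared, ranked over 59985 sites. Both SNDX-5613 libraries lay above all DMSO libraries at 4 of 25 sites, where 14.3% of all sites did so, and below them at 5 of 25, where 14.4% did. Above were the AMOT and AMOTL2 promoters and the intronic sites 2 and 3 of AMOTL1, with differences of 17.4 and 13.8 points. Below were sites 8, 17, 19 and 25 of AMOTL1, with differences of -8.83, -22.5, -10.2 and -11.8 points, and site 23 of AMOTL2, with -20.7 points. Sites 2 and 3 lie in the part of AMOTL1 that overlaps PIWIL4-AS1, a noncoding RNA gene. Site 25, downstream of AMOTL1, was at 7.09, 7.70 and 9.88 in DMSO and at 2.99, 2.21 and 41.7 in SNDX-5613 replicates 1, 2 and 3 when all 6 libraries were ranked, so that its difference with that library, 7.403 points, was decided by that library.

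A chosen list of 31 genes of the Hippo pathway, its junction partners and protein turnover was compared by the rank of −log10 p. A promoter site in all 6 libraries was found for 30 of the 31 genes, and CRB3, a polarity protein, had none in any library. Of the 30, 0 had all SNDX-5613 ranks above all DMSO ranks, against 7.07% of protein-coding promoters, and 3 had them below, against 7.53%. These 3 were WWTR1, which encodes TAZ, with a difference of -9.64 points, ARHGAP17, a binding partner of AMOT at junctions, with -5.92, and TNKS2, a tankyrase that marks angiomotins for degradation, with -4.73. WWTR1 was at 83.2, 79.5 and 82.6 in DMSO and 72.3, 72.9 and 71.1 in SNDX-5613 libraries (exact two-sided permutation p = 0.1, the smallest possible). WWTR1 was named because its groups did not overlap, which fixes this p. YAP1, the partner coactivator, was at 58.7, 60.1 and 63.9 in DMSO and 69.8, 58.1 and 70.5 in SNDX-5613 libraries, and the groups overlapped. By role, 0 of 10 kinases and adaptors, 1 of 6 YAP, TAZ and TEAD genes, 1 of 7 junction and polarity partners and 1 of 7 genes of turnover lay below. Counts of this size by −log10 p are near the background shares, so they say nothing particular about the list or its roles. With sites ranked by fold, 0 of the 30 lay below, against 3.27% of protein-coding promoters, and 1 (NF2, the adaptor merlin) lay above, against 11.8%. The median difference over the 30 was -2.52 points, against -0.376 over all protein-coding promoters.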

How the data were processed

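ATAC-seq libraries of HLF cells, 3 with DMSO and 3 with SNDX-5613, were grouped by the labels. Per the submitters' processing notes, the authors used Trim Galore 0.6.7, Bowtie2 2.3.4.1, Picard 2.20.0, SAMtools, deepTools 3.5.4 and MACS2 with hg38. Duplicate handling at peak calling and a Tn5 shift were not given in the sources used here. Peaks were called in each library without pooling replicates. The deposited peak lists give, per summit, the authors' fold enrichment over local background, a ratio, and the authors' −log10 p and −log10 q. A score in the deposited lists, which the authors' caller derived from q, was not used. Of the deposited consensus sets, which combine the replicates of a group, only the regions were used.

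With Python 3.11.15, SciPy 1.17.1 and pysam 0.24.0, regions on chromosomes 1 to 22, X and Y were merged into sites. A promoter site had a region centred within 1 kb of a start in GENCODE release 44. The AMOT, AMOTL1 and AMOTL2 promoter site used was that with the highest mean percentile. Depth as read numbers was not used here. Fold and p were solved for a whole-number pileup and a background, where fold was at least 2 and −log10 p below 290, and 100% came out whole within 0.1% of p. The most frequent background served as relative depth. A pileup has a counting error, given as a Poisson interval for counting error only. Values were compared by two-sided exact permutation tests, and the path from regions to ranks was tested on simulated data.

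The members, gene lists and naming rule were chosen with earlier results of these data known. The rule named all promoter sites, for each gene the 3 other sites with the highest mean percentile in the libraries' own lists, all gained or lost sites, sites in all 6 libraries whose groups did not overlap, the 3 most similar promoters of each member and the Hippo genes whose groups did not overlap. Other sites, among them those named for the 5 deeper libraries, were chosen after their values were seen. Alternatives were a ranking by fold, by the libraries' own lists or by pileup, −log10 q of at least 3, fixed windows of 250 bp either side of the summit, a promoter distance of 3 kb, loci with 10 kb on either side, equal numbers of the top 40568 regions, presence by covering 50% of a site, a replicate block, and leaving out each library. Part of the hepatocyte marker list and the leukocyte marker list are not reported here.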

Additional observations from a re-analysis of the deposited data

How the results depend on the processing

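The AMOT promoter difference kept its sign in all 13 alternatives, with 27.9 to 33.6 points when 1 library was left out, 35.8 at −log10 q of at least 3, 19.1 by fold and 8.13 over the libraries' own lists, where the groups overlapped (exact permutation p = 0.4). That of AMOTL1 (2.52 points) turned to -3.97 over the own lists and -0.0425 by log2 pileup, and ranged from -2.72 (without DMSO replicate 3) to 6.86 when 1 library was left out. That of AMOTL2 (3.84 points) turned to -2.35 over the own lists and ranged from 1.99 to 4.18 when 1 library was left out. The difference in AMOT region counts (-0.333) became 0.667 at equal numbers of regions and ranged from -0.5 to 0 when 1 library was left out. For AMOTL1 counts this range was -4.33 to 3.67 and for AMOTL2 counts -5.17 to 0.333, both highest without SNDX-5613 replicate 3. The causes were not tested. Angiomotin sites with all SNDX-5613 ranks above numbered 1 by fold and 2 to 4 when 1 library was left out, and those below 0 at −log10 q of at least 3, where 11 sites could be compared, and 1 to 5 when 1 library was left out (3 without DMSO replicate 1, 2 without SNDX-5613 replicate 1, 5 without SNDX-5613 replicate 3). Over all sites, 12.3% to 14.5% lay above and 12.2% to 14.4% below when 1 library was left out, 7.92% and 6.83% by fold, and 8.42% and 7.66% at the q limit. The AMOT promoter was above in each of these settings. Lost sites numbered 1 at −log10 q of at least 3 (site 15 of AMOTL2) and 0 to 2 when 1 library was left out, the 2 being site 16 of AMOTL1 and site 15 of AMOTL2 without SNDX-5613 replicate 2, and gained sites 0 in every setting. Hippo promoters above numbered 1 by fold (NF2) and 0 to 1 when 1 library was left out (YAP1, without SNDX-5613 replicate 2), and those below 0 by fold and 4 to 8 when 1 library was left out (8 without DMSO replicate 2, and 7, 6 and 5 without SNDX-5613 replicates 1, 2 and 3), against 10.5% to 13.0% of protein-coding promoters above and 11.9% to 14.3% below when 1 library was left out. With a replicate block, an exact sign-flip test whose smallest p is 0.25, the AMOT difference of 33.1 points gave p = 0.25, that of AMOTL1 p = 0.75 and that of AMOTL2 p = 0.25. Libraries that share a number correlated at 0.0313, 5.9e-05 and 0.0184 in their deviations from the group means, so the number is not shown to pair them. The other alternatives changed no direction. Of the 25 sites present in the 5 deeper libraries, 11 had no peak in SNDX-5613 replicate 3, which had 16.2% of their median background.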

Other observations

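Downstream of AMOTL2, 17 sites lay between the end of the gene and 50 kb beyond it, several of them in or next to LINC02004, a long noncoding RNA gene. Site 25 (chr3:134313292-134313743) had its summit 8 bp from a LINC02004 start and held 3 GGAATG and 3 GGGCGG matches within 100 bp. It was present in the 5 deeper libraries, with a pileup over background of 51.2, 59.8 and 58.1 in DMSO and 60.3 and 40.4 in SNDX-5613 replicates 1 and 2, and had no peak in SNDX-5613 replicate 3, where 47.5% of the 6183 sites of a similar rank in those libraries had one. Site 23, 2096 bp from the same gene's nearest start, was at 16.6, 27.5 and 30.6 in DMSO and at 9.11, 8.61 and 21.5 in SNDX-5613 libraries, a difference of -11.8 points whose groups overlapped through SNDX-5613 replicate 3 (two-sided exact permutation p = 0.2). Site 20, in LINC02004, also held 3 GGAATG matches and was called in 1 DMSO and 1 SNDX-5613 library, with a mean percentile of 5.15 in the libraries' own lists.

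Site 9 of AMOTL2, in an intron 16385 bp after the start, was at 43.3, 29.6 and 33.2 in DMSO and at 37.1, 23.2 and 8.78 in SNDX-5613 libraries, a difference of -12.4 points (two-sided exact permutation p = 0.3). It was named after its values were seen.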
